A study of Mus musculus with 14 samples.

Results

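The hairpins mir-221 and mir-222 are a pair of microRNA (miRNA) precursors from 1 locus of the X chromosome. They were taken by name, mmu-mir-221 and mmu-mir-222, from the authors' deposited table, where they are 2 of 539 hairpins. The table compares small RNA in exosomes, small vesicles that carry RNA and protein out of cells, released by adipose tissue macrophages of obese and of lean C57BL/6 mice. The macrophages, defined as CD11b+F4/80+ cells, were cultured for 72 hours in IMDM with 10% fetal bovine serum freed of exosomes, and vesicles were then collected by ultracentrifugation. The labels give 7 obese and 7 lean libraries, and name neither the diet or genotype that made animals obese nor whether animals were pooled. The age labels run from 24-26 to 24-32 weeks across the obese libraries and from 24-33 to 24-39 weeks across the lean ones, and the upper age steps by 1 week per library in the order of listing. If these labels hold, an effect of age cannot be told apart from that of obesity. The table holds 1 log2 fold change, 1 mean log2 expression and 1 p-value per hairpin and no value for a single library, so levels by library, group means and depth cannot be given. Whether each library came from its own animal is not in the labels, and the p-values then measure the spread between these libraries alone, which may be technical.

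A miRNA hairpin is cut by Dicer, and 1 arm is loaded into an Argonaute protein, where its seed, the bases from the second to the eighth, pairs with sites in target mRNAs and lowers their output. The precursors of miR-221 and miR-222 are cut from a shared primary transcript, and their 3p arms have the same seed. Known targets include the mRNAs of the cell cycle inhibitors Cdkn1b and Cdkn1c and of the stem cell factor receptor Kit, and the pair is known for roles in proliferation, in blood vessel cells and in the response of macrophages to inflammatory stimuli. NF-κB and AP-1 are known to drive the primary transcript.

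The mature sequences are shown because the seed is what ties the pair together, and because it also picks out 1 other hairpin of the table. RefSeq on GRCm38.p6 gives the sequences below, with the seed in capitals.
miR-221-3p: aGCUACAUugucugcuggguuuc
miR-222-3p: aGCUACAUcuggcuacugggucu
miR-1928: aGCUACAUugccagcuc
miR-221-5p: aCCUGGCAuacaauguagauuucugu
Among 1738 mature miRNA entries searched, miR-1928 was the 1 other with this seed. The 3p sequences of the pair share their first 8 bases and match at 11 of 23 positions without gaps. The 5p arm of miR-221 has another seed, and the table names hairpins, so the arms cannot be told apart in the values below.

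The hairpins are shown with the 3p arm in capitals, since the table's rows are hairpins and their likeness bears on whether reads can be shared.
mir-221: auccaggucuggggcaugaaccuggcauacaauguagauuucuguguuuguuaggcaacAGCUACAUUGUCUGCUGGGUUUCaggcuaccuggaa
mir-222: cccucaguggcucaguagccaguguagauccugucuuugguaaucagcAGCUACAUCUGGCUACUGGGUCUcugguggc
On GRCm38.p6, mir-221 lies at chrX:19146294-19146388 and mir-222 at chrX:19146893-19146971, both on the minus strand, with 504 bases between them. GENCODE M21, on the same assembly, places no other gene over either hairpin. The nearest is the noncoding Gm14636, 10010 bases upstream on the same strand. The longest stretch that the hairpins have in common is 9 bases, and neither shares 20 bases with a transcript of any other gene in GENCODE M21. Unlike copies of one miRNA, the pair thus has no mature sequence in common through which the same read would count for both hairpins.

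The seed match of the pair in an mRNA, searched on the mRNA strand alone, reads ATGTAGC. It was found in the 3′ UTR of 6 of 8 mRNAs known as targets (Cdkn1b, Cdkn1c, Kit, Bbc3, Timp3 and Ets1, but not Foxo3 or Smarca4), and in 9.46% of the longest 3′ UTRs of 20997 protein-coding genes of GENCODE M21. The target 3′ UTRs were 688 to 4490 bases long against a median of 962 over all genes, so the shares are not of equal lengths. The sites in the cell cycle inhibitors and in Kit are shown with the match in capitals.
Cdkn1b, chr6:134924417-134924440, plus strand: tctaaaagcattggATGTAGCatt
Cdkn1c, chr7:143458923-143458946, minus strand: gggacctttcgttcATGTAGCagg
Kit, chr5:75654978-75655001, plus strand: atgatgggagatatATGTAGCaag
Kit, chr5:75656509-75656532, plus strand: ttgtaaatattgaaATGTAGCaat
A match of letters is a description and no measured binding, and no mRNA was measured in these libraries.

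Both hairpins were among the most abundant of the table. In the authors' deposited table mir-221 had a mean log2 expression of 14.73, rank 6 of 539, and mir-222 one of 14.42, rank 7. The difference of 0.31 makes the geometric mean level of mir-221 1.24-fold that of mir-222, over both groups and per hairpin. The 3p arms are of equal length, 23 bases. On the linear scale, the 2 hairpins made up 5.04% and 4.07% of the summed geometric means of all hairpins in the authors' deposited table. A mean of log2 values gives a geometric mean, so these are not shares of reads. No standard deviation of a level can be given, since the spread between libraries is not in the table.

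Which group its fold changes are relative to is not stated in the table. In published work on this material miR-155 was higher in exosomes from obese mice, and mir-155 stands at 4.41 in the authors' deposited table. If that report holds for these libraries, a positive value is a higher level in the obese group, and all directions here are to be read with that condition.

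On the positive side, with mir-155, mir-222 passed the test and mir-221 did not. The authors' deposited table gives mir-222 a log2 fold change of 1.82 (3.53-fold), with an adjusted p of 0.0240. Its standard error, taken from the deposited fold change and t, was 0.45 and its 95% interval 0.86 to 2.78. For mir-221 the log2 fold change was 1.72 (3.29-fold), with a p of 0.0132 before and 0.123 after adjustment in the authors' deposited table. The standard error of mir-221 was 0.62 and its 95% interval 0.41 to 3.03, which lies above 0 but was not adjusted for the number of hairpins. A call, meaning an adjusted p under 0.05, was made for 5.57% of all hairpins in the authors' deposited table, and a positive call for 2.04%. Before adjustment 17.6% had a p under 0.05, as mir-221 did, and 8.53% had one with a positive value. Since vesicles are measured in bulk, more vesicles that carry the pair and more of the pair per vesicle cannot be told apart.

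The fold changes of the pair were nearly equal, and the larger one was 1.07 times the smaller. The value of mir-222 minus that of mir-221 was 0.10 on the log2 scale. How the estimates vary together is unknown, so its standard error can lie anywhere from 0.17, if they move together fully, to 1.08, if they move fully against each other. At the smallest of these errors the 95% interval of the difference was −0.25 to 0.46, and at the largest −2.16 to 2.37. The difference therefore did not exceed its error at any correlation, with an absolute t of at most 0.61. That mir-222 was called and mir-221 was not does not show that the hairpins differ.

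What differed beside the call was the spread: the standard error of mir-221 was 1.37 times that of mir-222. By standard error mir-222 ranked 10 from the smallest of 539, and mir-221 ranked 54. The smallest absolute t among called hairpins was 3.53 in the authors' deposited table. At that t and at its own error mir-221 would have needed a log2 fold change of 2.20, whereas mir-222 needed 1.61. With the error of mir-222, the fold change of mir-221 would give a t of 3.78, past that limit.

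The call of mir-222 had the smallest log2 fold change of all 30 calls, and the next were let-7i at 1.95, mir-140 at 2.22, mir-3470b at −2.50 and mir-181a-1 at 2.57 in the authors' deposited table. No called hairpin was more abundant than mir-222. Of the 36 hairpins with a larger positive fold change than mir-222, 26 were not called.

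**Figure D1:**
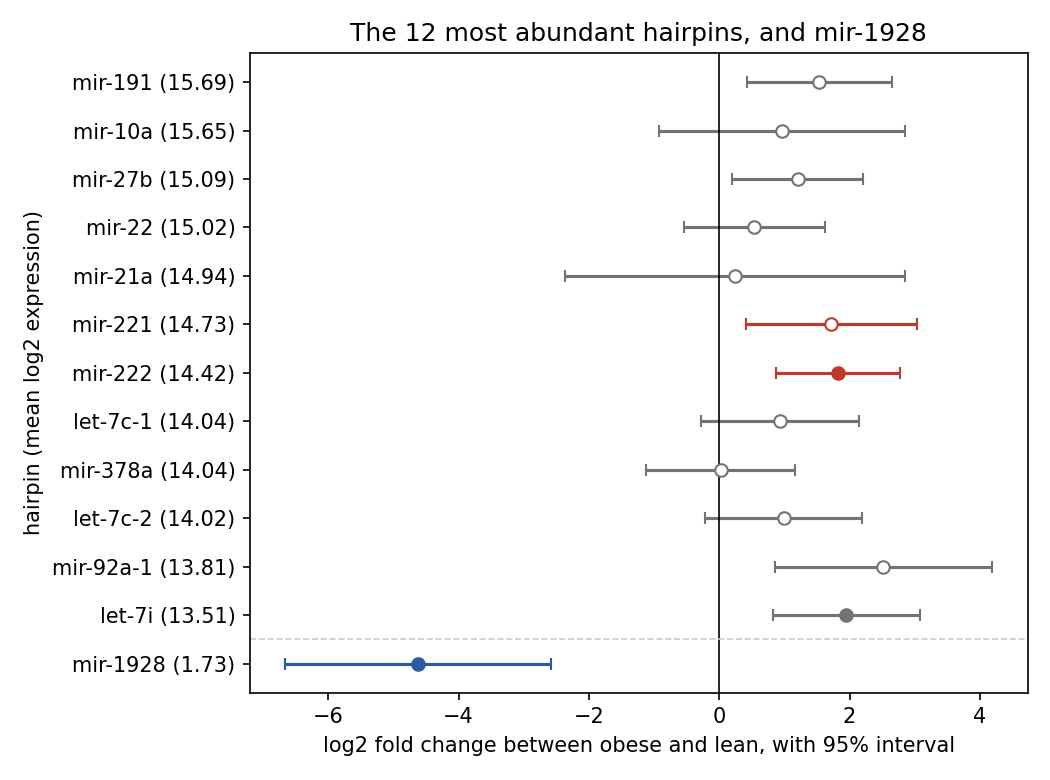
Log2 fold change with its 95% interval (x axis) of the 12 most abundant hairpins, from the top down, and of mir-1928 below the dashed line (y axis, mean log2 expression in brackets); filled points have an adjusted p under 0.05. The intervals of mir-221 and mir-222 (red) overlap almost fully, around 1.72 and 1.82, while mir-1928 (blue), with the same seed, lies at −4.62.

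The pair had larger values than the rows closest to it in abundance. The 3 hairpins next above and next below each member in mean expression are mir-27b, mir-22, mir-21a, let-7c-1, mir-378a and let-7c-2. The authors' deposited table gives log2 fold changes of 1.21 for mir-27b, 0.54 for mir-22, 0.24 for mir-21a, 0.93 for let-7c-1, 0.02 for mir-378a and 0.99 for let-7c-2, and none was called. Just past these, mir-92a-1 at 2.52 and let-7i at 1.95 in the authors' deposited table were above both members. Positive values were the rule at this abundance: of the 20 most abundant hairpins, the pair included, 19 were positive, with a median of 1.10, and 4 were called. In the authors' deposited table as a whole, 284 of 539 hairpins were positive, with a median of 0.09, and 5.57% were called. The intervals of mir-221 and mir-222 overlap that of each of the 6 neighbours, and those differences were not tested.

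The seed did not go with one direction. The hairpin mir-1928, a little-studied miRNA, was called on the negative side. The authors' deposited table gives it a log2 fold change of −4.62 (24.6-fold), with an adjusted p of 0.00704. Its 95% interval, from the deposited fold change and t, was −6.66 to −2.58. The value of mir-222 minus that of mir-1928 was 6.44, with a 95% interval of 3.45 to 9.44 at the largest standard error that any correlation allows. The value of mir-221 minus that of mir-1928 was 6.34, with an interval of 2.99 to 9.69 in the same sense. Both intervals lie above 0, so the pair and mir-1928 differed beyond their errors at every correlation. These intervals are not adjusted for the number of hairpins.

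The seed-sharing hairpin was rare in these vesicles. Its mean log2 expression was 1.73, rank 303 of 539, in the authors' deposited table, which is 13.0 below mir-221 and 12.7 below mir-222 on the log2 scale. It lies at chr1:74206554-74206620 on the minus strand, and GENCODE M21 (ENSMUSG00000087820.1) places no other gene there. Its mature sequence of 17 bases matches the first bases of miR-221-3p at 14 positions and shares the first 10 without a break. The differences, counted from 1 at the 5′ end with the base of miR-221-3p first, are U11C, U13A and G17C. Transcripts of 12 other genes hold 20 bases in a row of the hairpin, although the mature sequence itself is in none of them. The sources used here do not say how reads that fit several places were assigned, and the part of such reads in the value of mir-1928 was not tested.

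**Figure D2:**
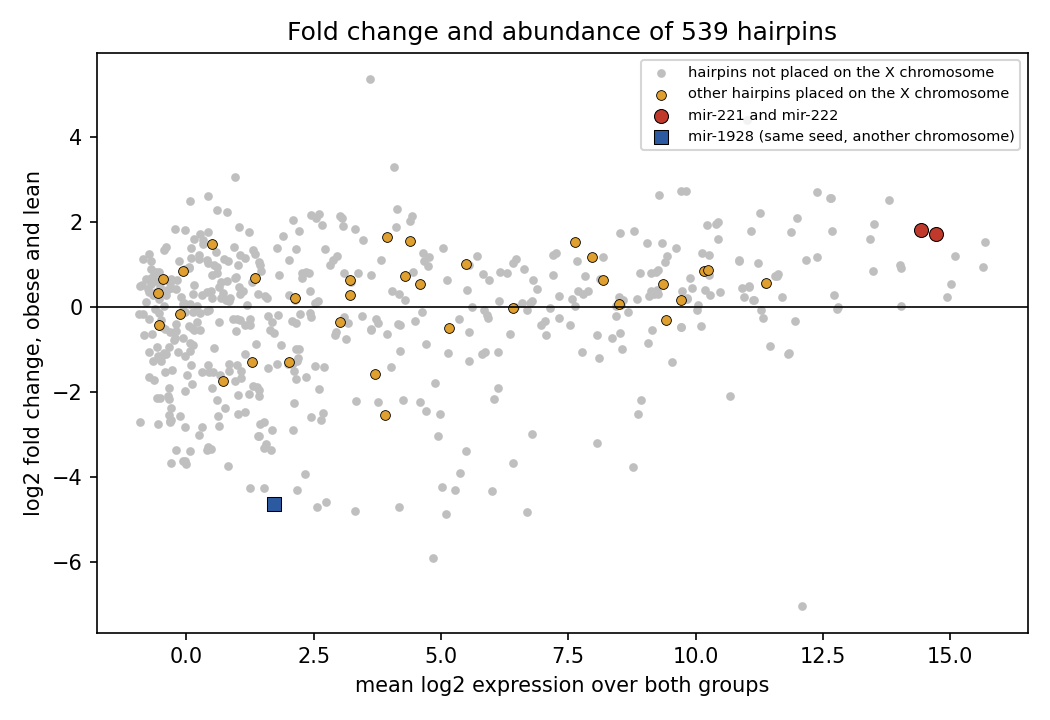
Log2 fold change (y axis) against mean log2 expression over both groups (x axis) for 539 hairpins; orange points lie on the X chromosome. The pair (red) sits at the abundant end near 1.8, above the 33 other hairpins placed on the X chromosome, and mir-1928 (blue square) sits low on both axes.

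On their chromosome the pair stood at the top. RefSeq placed 456 of the 539 hairpins, 35 of them on the X chromosome. The 33 beside the pair had log2 fold changes from −2.54 to 1.67 in the authors' deposited table, so mir-222 and mir-221 had the 2 largest, and they were also the 2 most abundant. Of the 537 hairpins outside the pair, wherever they lie, 282 were positive, or 219 after recentring by 0.34, with a median of 0.09. Of the 33 on the X chromosome none was called, against 5.57% of all hairpins. Among the 33, 22 were positive, or 17 after recentring by 0.34, and their median was 0.55. Next in order were mir-374c at 1.67 and mir-374b at 1.56, which lie opposite each other on the 2 strands of 1 locus, and the myeloid miRNA mir-223 at 1.54 in the authors' deposited table. All 3 lie within the intervals of both members. Whether strand was used in counting is not stated, so the values of mir-374b and mir-374c are uncertain. For the most negative, mir-3473a, the authors' deposited table gives −2.54 and an adjusted p of 0.0717. No hairpin other than the pair lies within 100 kb of it.

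The near equality of the pair was read against other neighbours. Within 10000 bases on 1 strand, 127 pairs of hairpins of different name stems were placed, made of 119 hairpins, with clusters of several hairpins giving several pairs. The absolute difference in log2 fold change had a median of 0.72 and quartiles of 0.32 and 1.36. With 0.10 the pair of mir-221 and mir-222 had rank 11 from the smallest, and 77 of the 127 pairs had values of 1 sign. Many of the 127 pairs hold a rare hairpin, with a mean log2 expression under 3.32. With such low rows left out, 53 pairs remained, with a median difference of 0.60, and 5 of them had a smaller difference than this pair. As among all hairpins, of which 5.57% were called, few of these 119 had a call: both hairpins were called in 2 pairs, mir-181a-1 with mir-181b-1 and mir-181a-2 with mir-181b-2, and 1 of the hairpins in another 2. Those are mir-221 with mir-222, where the values were close, and mir-29a with mir-29b-1, at 2.0 and −3.66 in the authors' deposited table. Hairpins of a pair share libraries, so these differences are a description.

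**Figure D3:**
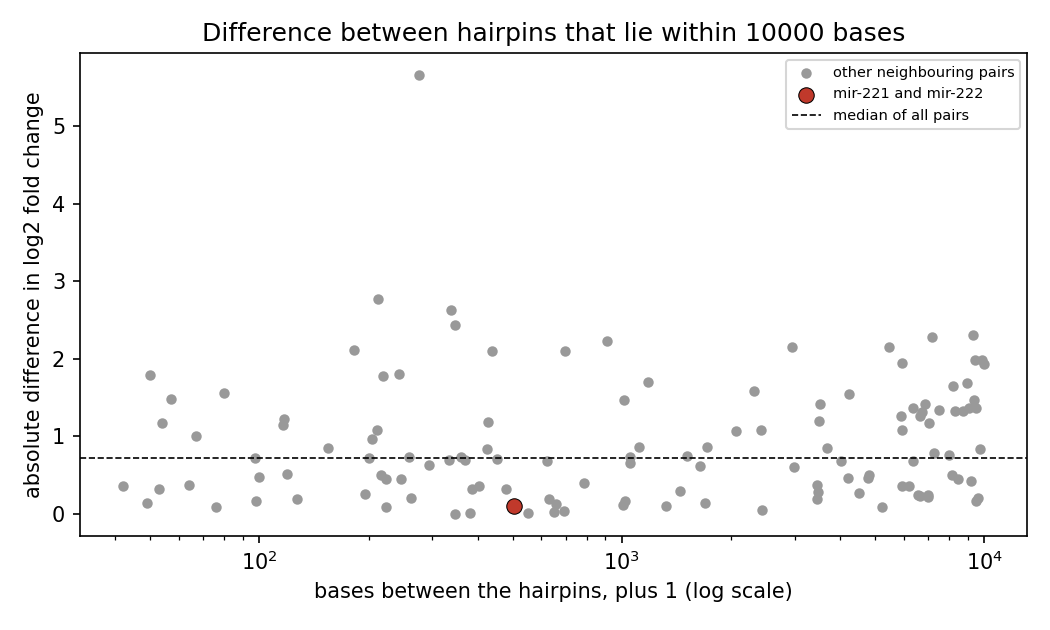
Absolute difference in log2 fold change (y axis) against the number of bases between the hairpins on a log axis (x axis) for 127 neighbouring pairs; the dashed line is their median of 0.72. The pair of mir-221 and mir-222 (red), 504 bases apart, lies at 0.10, and the highest point is mir-29a with mir-29b-1.

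The regulators that drive the pair act on other miRNAs too. Of 11 other hairpins known to be induced through NF-κB or AP-1, 10 were positive, or 9 after recentring by 0.34, and 1 was called, mir-155, against positive calls for 2.04% of all hairpins. Their median was 1.08, beside 0.09 over all hairpins. The authors' deposited table has mir-146a, a feedback regulator of Toll-like receptor signalling, at 2.11 (adjusted p = 0.183), and mir-187 at 1.85 (adjusted p = 0.251). The fold changes of the pair lay between these and the 0.90 that the authors' deposited table has for mir-132 (adjusted p = 0.480). Lowest on the list was mir-212, its only negative member, which the authors' deposited table has at −0.07 (adjusted p = 0.968). Above mir-146a, the same table has mir-146b at 2.72 (adjusted p = 0.303). The list includes mir-155, from which the direction was taken, and mir-21a, an AP-1 target of about the same abundance as the pair, at 0.24. Several members were rare, with a mean log2 expression under 3.32: mir-187 at −0.22, mir-147 at 1.42 and the mir-9 hairpins at 0.50 to 0.59. The mir-9 hairpins are also copies of 1 miRNA. With such low rows left out, the median of the list, the pair included, went from 1.30 to 1.77. That value lies between mir-221 at 1.72 and mir-222 at 1.82. It is thus set by the pair itself and is no level of the other hairpins.

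For comparison with the lists that follow, 282 of the 537 hairpins outside the pair were positive, or 219 after recentring by 0.34, 5.57% of all hairpins were called and 2.04% were called on the positive side. Of 10 other hairpins known to act on CDK inhibitors none was called, 8 were positive, or 6 after recentring by 0.34, and their median was 0.39. The positive end was the miR-106b cluster, known to target Cdkn1a and Cdkn1c: the authors' deposited table has mir-106b at 1.81 (adjusted p = 0.0614), mir-93 at 1.62 (adjusted p = 0.0942) and mir-25 at 1.11 (adjusted p = 0.123). At the other end mir-20a was at −0.32 and mir-152 at −0.24 in the authors' deposited table. Of 5 other hairpins known to target Kit, 1 was positive, none was called and the median was −0.53. Among these, the authors' deposited table has mir-193a at −1.27 (adjusted p = 0.429) and mir-34a at −0.53 (adjusted p = 0.795).

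Of 27 other hairpins known for roles in blood vessel growth, 23 were positive, or 15 after recentring by 0.34, with a median of 0.38. The hypoxia miRNA mir-210 was the 1 called of 27, against positive calls for 2.04% of all hairpins. The authors' deposited table has it at 2.64 (adjusted p = 0.00704), and next in order of p are mir-92a-1 at 2.52 (adjusted p = 0.0717) followed by mir-27a at 1.80 (adjusted p = 0.0740). Of 13 other hairpins that published work links to obese or inflamed fat, none was called, against 5.57% of all hairpins, and 10 were positive, or 9 after recentring by 0.34, with a median of 1.09. There mir-146b had the largest value, at 2.72 (adjusted p = 0.303), while the authors' deposited table has mir-34a at −0.53, mir-142a at −0.46 and mir-342 at −0.26. The list does not hold mir-155, called at 4.41, although the published work used for the direction found it higher with obesity. The absence of a call thus depends on how the list was drawn.

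Blood vessel and stromal cells express miR-221 and miR-222 as well, so their markers were read beside the pair. The endothelial markers mir-126a and mir-126b had mean log2 expressions of 6.46 and 5.91 and log2 fold changes of 0.01 and −0.18 in the authors' deposited table. Of 6 stromal and mural markers none was called, against 5.57% of all hairpins, and 5 were positive, or 2 after recentring by 0.34. Their mean log2 expression ran from 0.22 for mir-145a to 6.59 for mir-199a-1 in the authors' deposited table. Of the 5 hairpins listed as myeloid and pan-leukocyte markers, mir-142a had a mean log2 expression of 9.70 and mir-223 one of 7.62. In the authors' deposited table mir-22, also on that list, had one of 15.02, and none of these 3 was called. Of the other 2 on that list, mir-155 was called on the positive side, against 2.04% of all hairpins. The other, mir-511, which marks alternatively activated macrophages, was called on the negative side, against 3.53% of all hairpins. It stood at −4.70 in the authors' deposited table. Of 5 lymphocyte markers 4 were called, all positive: both copies of miR-181a and both of miR-181b, against positive calls for 2.04% of all hairpins. Copies of 1 miRNA can count the same reads, so these 4 calls are not separate measurements. The copies of miR-181a stood at 2.57 and 2.58, and those of miR-181b at 2.74 and 2.75. The authors' deposited table has the fifth marker, mir-150, at 0.59 (adjusted p = 0.910). No erythrocyte marker was called, against 5.57% of all hairpins. Among them, mir-486a had a mean log2 expression of 11.81 and a log2 fold change of −1.09 in the authors' deposited table. Of 4 adipocyte markers 2 were positive, or 1 after recentring by 0.34. On the negative side 1 of the 4 was called, against negative calls for 3.53% of all hairpins. The authors' deposited table has the called mir-365-2 at −3.75, its other copy mir-365-1 at 0.98, mir-193b at −0.56 and mir-378a at 0.02. The part of vesicles of other cells in the values of the pair was not tested.

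The call of mir-222 depended on the scaling between libraries. The 180 most abundant hairpins had a median fold change of 0.34 on the log2 scale. With this subtracted from every hairpin, mir-222 stood at 1.48 and no longer passed (adjusted p = 0.0704), and mir-221 stood at 1.38 (adjusted p = 0.244). On a grid in steps of 0.05, chosen after the values were seen, the call held up to a recentring of 0.25. A shift the other way brought mir-221 past the threshold, from −0.40 downward (adjusted p = 0.0481). Over the whole grid, from −0.50 to 1.0, mir-1928 stayed called on the negative side. The grid does not reach the fold changes of the pair, so it cannot turn their sign.

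**Figure D4:**
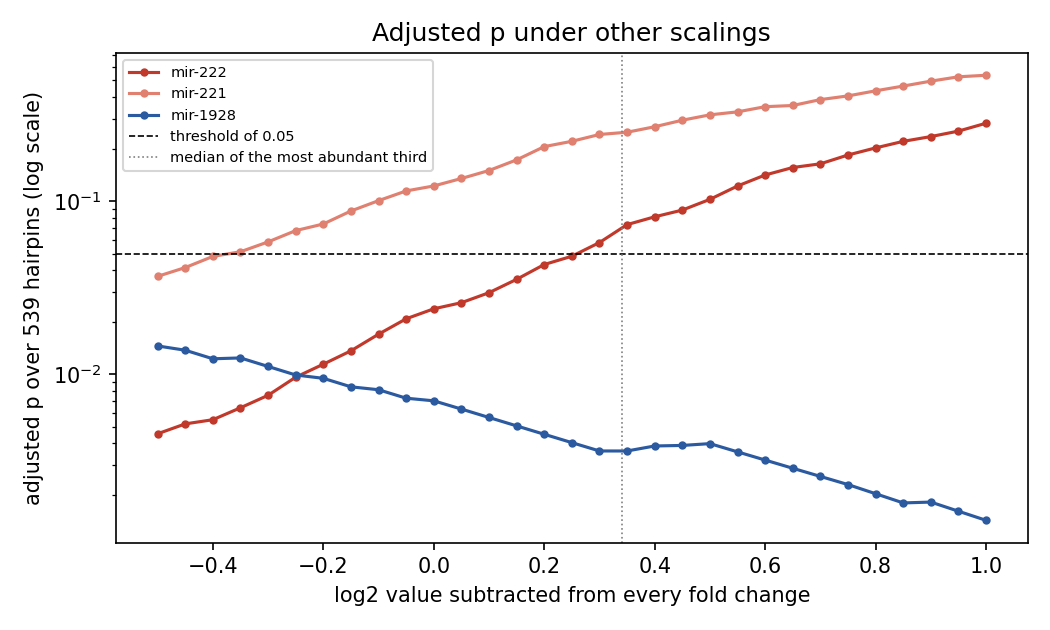
Adjusted p over 539 hairpins on a log axis (y axis) against the log2 value subtracted from every fold change (x axis); the dashed line is the threshold of 0.05 and the dotted line the recentring of 0.34. The curve of mir-222 crosses the threshold after 0.25, that of mir-221 lies above it from −0.35 upward, and that of mir-1928 stays below it throughout.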

How the data were processed

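Small RNA of exosomes was sequenced in 7 obese and 7 lean libraries. Per the submitters' processing notes, limma, edgeR, Novoalign, Trimmomatic 0.30, MultiQC and FastQC were used, in roles not stated. The deposited table has the columns of a limma ranking, per the file headers: fold changes and mean expression on the log2 scale, a moderated t (a score), p-values before and after adjustment, and B, a natural log of odds. The sources used here give no genome build, miRNA annotation, normalization, filter or depth. The table has 0 columns of per-library values, so the authors' deposited fold changes and limma p-values were used as they stand, and no model was fitted to libraries. The adjusted p equals a Benjamini-Hochberg adjustment over 539 rows. The t and p-values imply 17.9 degrees of freedom in each row examined, and rows of larger p were not examined. The 95% intervals follow from this value, with standard errors as log2 fold change over t. Adjusted p-values under alternatives were recomputed from these errors and degrees of freedom with scipy 1.17.1. The recentring and the 1.5-fold minimum were tried on simulated data, with larger true changes than the fold changes of the pair. The other alternatives were not tried there. Places and sequences came from RefSeq on GRCm38.p6 and GENCODE M21, matched by name.

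The hairpins named are the pair, the hairpin that shares its seed, the 3 next rows in abundance on each side, the 5 smallest called fold changes, mir-155, and members of smallest p of each list; others were chosen after their values were seen. The members and lists were chosen with earlier results of these data known. List counts have no test.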

Additional observations from a re-analysis of the deposited data

How the results depend on the processing

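No alternative run could turn the sign of the pair, since none subtracts as much as its fold changes. The call of mir-222 was lost at an adjusted p under 0.01 (log2 fold change 1.82, adjusted p = 0.0240), with a Holm adjustment (1.82, adjusted p = 0.440), against a minimum change of 1.5-fold (1.82, adjusted p = 0.124), and after recentring by 0.34 (1.48) or by 0.5 (1.32, adjusted p = 0.103). It was kept after recentring by 0.09, the median of all rows, and by 0.2, with low rows left out (mean log2 expression under 3.32), among the 270 most abundant hairpins, with 1 row per stem and without hairpins numbered above mir-1000. For mir-221 a call appeared after recentring by −0.5 (2.22, adjusted p = 0.0369), and the lowest other adjusted p among the settings listed was 0.0780, with low rows left out. The hairpin mir-1928 lost its call with a Holm adjustment (−4.62, adjusted p = 0.0830) and is absent once low rows are left out, among the 270 most abundant and without high-numbered hairpins.

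Over the whole table there were 11 positive and 19 negative calls. These became 19 and 26 at an adjusted p under 0.1, 7 and 7 under 0.01, 6 and 5 with a Holm adjustment, 8 and 9 against a 1.5-fold minimum, 8 and 25 after recentring by 0.34, 16 and 16 with low rows left out, 16 and 19 among the 270 most abundant hairpins, and 13 and 12 without hairpins above mir-1000. The median of the endothelial markers moved from −0.08 to −0.42 after recentring by 0.34, and that of the stromal markers from 0.13 to −0.21. With low rows left out, the median of the hairpins known to target Kit, the pair included, went from −0.22 to 0.59. That value lies between mir-34a at −0.53 and mir-221 at 1.72, so its sign is set by the pair itself. The rows left beside the pair, mir-34a and mir-193a (−1.27), were negative. The median of the adipocyte markers went from −0.27 to 0.02 with low rows left out. Recentring by −0.5, 0.2 and 0.5 was chosen after seeing the data, and the other settings were planned. No paired analysis was possible because no value per library is in the table, and for the same reason no library could be left out. Depth per library is unknown, so what it limits cannot be said.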
